A study of Mus musculus with 9 samples.

Results

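The genes described here are 39 mouse genes for contact and secreted guidance cues and their receptors: the Eph receptors, their ephrin ligands, the Slits and their Robo receptors, and the netrins with the UNC5 receptors, Dcc, and neogenin. They were taken by name from a list of symbols, with no threshold on their values. Of the 39 genes, 38 had a row among the 50686 genes of the count table, and Ntn3 was not analysed here. The expression filter kept 30 of the 38 for testing. RNA-Seq libraries were made from 3 groups with n = 3 libraries each: control MC3T3-E1 osteoblasts, MC3T3-E1 osteoblasts treated with SB216763, and mouse pulmonary endothelial cells (ECs) that received no treatment. SB216763 inhibits the kinase GSK3, and MC3T3-E1 is an established line of mouse osteoblasts, so all osteoblast libraries come from a single line. Treated cells received the inhibitor at 10 μM for 14 days, and the ECs were isolated by FACS. Age and strain of the mice that gave the ECs, the time in culture of the control cells, and whether replicates were separate cultures are not given in the sources used here, so the p-values measure the spread between these libraries only, which may be technical. One comparison asks which guidance genes the inhibitor changed in osteoblasts, and the others set both kinds of osteoblast beside the ECs.

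Guidance cues tell cells whether to approach or withdraw from each other. Ephrins are anchored in the membrane, the A class by a lipid and the B class by a transmembrane segment, and they bind Eph receptor tyrosine kinases on the neighboring cell, with signals passing into both cells. Slits are secreted and signal through Robo receptors, mostly as repellents, while netrins are secreted relatives of the laminins that are read by Dcc, neogenin, and the UNC5 receptors. In vessels, ephrin-B2 marks arterial and EphB4 venous ECs, Robo4 is restricted largely to the endothelium, and UNC5B is the main vascular netrin receptor. In bone, ephrins and EphB receptors pass signals between osteoblasts and osteoclasts.

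The stretches upstream of the start site were read from RefSeq for 33 of the 38 genes, which have 38 entries on GRCm38.p6. Each is 250 bases, ending at the base before the start, and is printed 5′ to 3′ on the strand of the gene. Shown first are those of the 3 genes with the highest control CPM among those that fell past the fold threshold given below, and then that of Efnb1, chosen after its values were seen as the more abundant of the B ephrins that rose. Capitals mark the letters TGGGAA, the core bound by the Notch effector RBPJ. Both strands were searched for these letters and for CTTTGA, the core bound by the TCF/LEF factors of the Wnt pathway, and no printed stretch held both.
Epha4, chr1:77515089-77515338, minus strand: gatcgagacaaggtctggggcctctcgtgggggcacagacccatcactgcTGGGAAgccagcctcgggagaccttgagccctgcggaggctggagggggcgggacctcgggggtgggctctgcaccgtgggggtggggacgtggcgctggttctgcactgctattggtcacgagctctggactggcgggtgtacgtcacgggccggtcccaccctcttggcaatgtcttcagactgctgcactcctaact
Efnb2, chr8:8661243-8661492, minus strand: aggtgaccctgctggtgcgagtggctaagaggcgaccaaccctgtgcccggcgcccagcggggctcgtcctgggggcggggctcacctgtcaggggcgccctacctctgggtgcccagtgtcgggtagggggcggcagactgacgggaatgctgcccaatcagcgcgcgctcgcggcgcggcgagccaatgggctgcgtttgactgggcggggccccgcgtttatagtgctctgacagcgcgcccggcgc
Robo2, chr16:74411826-74412075, minus strand: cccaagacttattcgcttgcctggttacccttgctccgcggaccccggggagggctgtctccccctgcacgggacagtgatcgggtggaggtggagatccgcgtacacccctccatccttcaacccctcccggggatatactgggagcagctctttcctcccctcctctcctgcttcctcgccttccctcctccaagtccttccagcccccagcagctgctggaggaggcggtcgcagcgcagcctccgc
Efnb1, chrX:99135811-99136060, plus strand: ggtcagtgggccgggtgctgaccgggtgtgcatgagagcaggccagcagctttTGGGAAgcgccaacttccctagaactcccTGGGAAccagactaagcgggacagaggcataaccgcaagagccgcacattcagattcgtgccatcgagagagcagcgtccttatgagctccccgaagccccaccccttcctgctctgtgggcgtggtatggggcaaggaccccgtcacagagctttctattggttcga

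TGGGAA stood 200 bases before the start of Epha4, on the gene's strand, and at 197 and 168 bases before that of Efnb1. The printed stretches of Efnb2 and Robo2 held neither set of letters, and CTTTGA was in none of the 4. Efnb2 had the richest of these stretches in G and C, at 72%, against 66% for Epha4, 65.6% for Robo2, and 60% for Efnb1. Robo2 has 3 RefSeq starts, of which the one shown abuts the counted gene model, and a more distant one holds TGGGAA 118 bases upstream. Of the 33 genes read, 6 held TGGGAA and 2 held CTTTGA (Epha2 and Robo4). Of all 32851 stretches of the same length, 21.6% held the first and 13.8% the second. These matches describe letters in a window and are not sites shown to be bound.

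Depth ranged from 30990107 to 68946333 counts per library, so 3 counts, taken as the least that the depth can show, correspond to between 0.0473 and 0.104 CPM (counts scaled to library size with the TMM factors of edgeR). Floors and intervals from counts cover counting error only. The mitochondrial share was 0.304–0.484% in controls, 0.831–2.26% with SB216763, where replicate 3 was highest, and 0.711–0.814% in ECs. Control replicate 2 was the lowest control in CPM for several guidance genes, which is given beside Slit2 and Robo2. The 10 endothelial markers summed to 3.94–4.76 CPM in control, 5.08–5.53 in treated osteoblasts, and 7091–7299 in ECs. Of these 10, Vwf alone passed an adjusted p of 0.01 with the inhibitor, at log2 1.07. The 8 osteoblast markers summed to 44145–59551 CPM in controls and to 12691–12900 with SB216763. Of these, 5 fell past the fold threshold and Spp1 rose past it. The 5 smooth muscle markers summed to 2904–3089 CPM in controls, 197–216 with SB216763, and 95.3–103 in ECs, and 3 of the 5 fell past the fold threshold with the inhibitor. Of 7 tested feedback genes of Wnt signaling, which GSK3 restrains, 4 fell past the fold threshold with the inhibitor, among them the standard target Axin2 (log2 fold change -4.83, edgeR adjusted p = 4.06e-16). At an adjusted p under 0.01 with any fold, 0 were higher. This direction is the reverse of that given by lifting the restraint, and the reason was not tested. The authors reported more β-catenin protein in treated osteoblasts by immunoblotting. Summed leukocyte markers stayed under 2.2 CPM in osteoblasts and gave 46.7–49.1 in ECs, nearly all of it Cd68, and epithelial markers stayed at or under 0.313 in every library. Lymphatic markers summed to 90.8–102 CPM in controls, 91.7–102 with SB216763, and 248–264 in ECs, neural ones to 42.0–42.7, 23.1–25.7, and 2.34–3.13, and pericyte ones to 254–313, 743–758, and 6.02–6.09. Members of the last lists moved apart: with SB216763, the pericyte marker Pdgfrb rose (log2 1.56) while Cspg4 fell (log2 -3.40), and in ECs against controls the lymphatic marker Pdpn was lower (log2 -9.76) while Lyve1 and Flt4 were higher (log2 11.21 and 11.53). In bulk libraries, fewer cells of a kind and less RNA per cell cannot be told apart, and the part of these markers in the changes below was not tested.

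With SB216763, a small set of guidance genes fell by a large factor and many others moved by less. Epha4, Epha8, Efnb2, Robo2, and Unc5c fell past the fold threshold, by between 4.14-fold and 16.6-fold. The largest factor, that of Epha8, rests on few reads and depends on the prior count, and the next was that of Epha4 at 13.5-fold. Efnb1, the ligand of the same class as Efnb2, rose 2.498-fold. Calls required a change of 2 or more on the log2 scale, in either direction, together with an adjusted p under 0.01. The p-values come from the quasi-likelihood test of edgeR and were adjusted by Benjamini-Hochberg over the 15531 genes tested. By this rule, 5 of the 30 tested guidance genes were called lower, where 5.84% of all genes tested were, and 0 of 30 were called higher, where 3.81% were. Beside the 0, Slit3 alone passed the fold threshold at an unadjusted p under 0.05, DESeq2 called 1 gene (Slit3), and limma-voom called 0. At an adjusted p under 0.01 with any fold, 7 guidance genes rose, where 32.9% of all genes did, and 12 fell, where 32.0% of all genes did. In the text below, "rose" and "fell" are used of genes past this adjusted p. The median log2 fold change was -0.09 over the 30 genes and 0.01 over all genes tested. For the former, the SD was 0.08 between the treated libraries, each set against the mean of the controls. The spread between control libraries is not part of this SD.

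**Figure D1:**
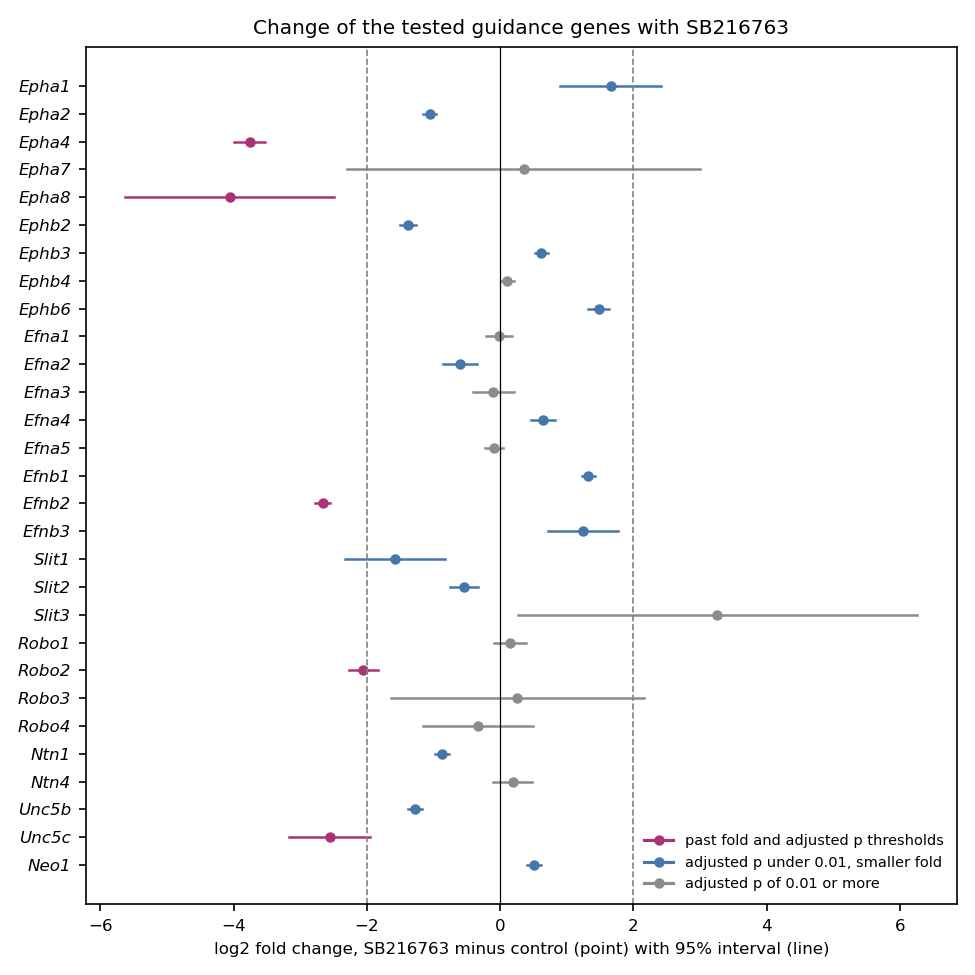
Log2 fold change of the tested guidance genes, SB216763 minus control (points), with the 95% interval from the edgeR fit (lines) and the fold threshold of 2 in either direction (dashed). Epha4, Epha8, Efnb2, Robo2, and Unc5c lie beyond -2 and pass the adjusted p, while Slit3 lies beyond 2 with an interval of 0.26 to 6.26. Ephb1, at 0 counts in all treated libraries, has no interval and is not drawn. Intervals of some genes with low counts, among them Robo4 and Ntn4, may be too narrow.

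Among the EphA receptors, Epha4 and Epha8 fell past the fold threshold. Epha4 (ENSMUSG00000026235.14, chr1:77367185-77515088), a receptor that binds ephrins of both classes, held 17.2, 15.2, and 17.3 CPM in the control libraries, 1.06, 1.15, and 1.44 in the SB216763 libraries, and 16.7, 17.9, and 15.9 in ECs. All treated libraries lay below all controls, while the EC and control values overlapped. The fall with the inhibitor was 13.5-fold (log2 -3.76 ± 0.11 (SE), adjusted p = 4.15e-14), and the difference between ECs and controls was 0.03, with a 95% interval of -0.13 to 0.18. Treated osteoblasts were 13.8-fold below ECs (adjusted p = 1.48e-14).

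Epha2, the main receptor of ephrin-A1, was the most abundant EphA receptor per length in every group. It held 102, 96.1, and 97.7 CPM in controls, 45.7, 49.2, and 47.3 with SB216763, and 197, 195, and 204 in ECs. The 3 groups did not overlap, with treated cells lowest and ECs highest. Epha2 fell 2.08-fold with the inhibitor (log2 -1.06, adjusted p = 6.62e-12) and was 2.01-fold higher in ECs than in controls. Per kilobase of exon, its level was 21.1 CPM in controls, against 2.06 for Epha4.

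Epha8 was a gene of few reads. Epha8 (ENSMUSG00000028661.8, chr4:136929419-136956816) had 19, 20, and 12 counts in controls, 0, 2, and 0 with SB216763, and 0, 2, and 2 in ECs. It stood above 3 counts in controls alone. Its call (log2 -4.06, adjusted p = 7.71e-05) rests on 51 control counts against 2, a ratio of 19.0 with an exact 95% binomial interval of 5.01 to 162 that covers counting error only. The fitted change was -2.59 with a larger prior count. It was -6.90 without SB216763 replicate 2, which held both treated counts, and -3.54 without SB216763 replicate 3, the ends of the range over single libraries left out. The gene did not pass the expression filter without control replicate 2 or with only the 2 osteoblast groups fitted.

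Of the other EphA receptors, Epha1 rose from 0.126, 0.182, and 0.174 to 0.459, 0.339, and 0.708 CPM and stood at 0.8704, 0.883, and 0.788 in ECs. Its log2 change was 1.66 (95% interval 0.90 to 2.41, adjusted p = 0.000502), with the highest treated value in replicate 3. Of its exon bases, 6.01% lie antisense to Zyx, and the strand setting of the counting is not given in the sources used here, so reads of both cannot be told apart. Epha7 was at 0 or 1 counts in every osteoblast library and at 9.02, 9.84, and 9.91 CPM in ECs, a ratio of pooled counts of 704 over controls with an exact binomial interval of 195 to 5823. Epha3, Epha5, Epha6, and Epha10 were not tested, the last 3 with at most 3 counts in every library. Summed over the 9 EphA receptors, levels ran from 112 to 120.2 CPM in controls, from 47.3 to 50.8 with SB216763, and from 224 to 230.4 in ECs, and most of each sum was Epha2.

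The EphB receptors of the osteoblasts moved in both directions. Ephb2, a receptor of the B ephrins, held 64.3, 58.5, and 62.1 CPM in controls, 23.6, 23.6, and 23.99 with SB216763, and 0.893, 0.548, and 0.811 in ECs. It fell 2.6-fold with the inhibitor (log2 -1.38 ± 0.0568 (SE), adjusted p = 3.11e-12), short of the fold threshold. Treated cells stayed 30.8-fold above ECs.

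Ephb3, its close relative, held 98.1, 88.8, and 93.1 CPM in controls, 142, 144, and 144 with SB216763, and 0.366, 0.335, and 0.347 in ECs. The treated libraries were all higher than the controls, by 1.53-fold (adjusted p = 3.01e-09), and ECs held 264-fold less than controls. Ephb6, a member whose kinase domain is inactive, rose from 6.82, 6.63, and 6.01 to 17.7, 19.4, and 17.5 CPM (2.78-fold, adjusted p = 3.42e-11), and ECs had 2, 2, and 4 counts. Both receptors that rose with the inhibitor were called lower in ECs than in controls.

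Ephb4, the venous endothelial receptor of ephrin-B2, held 69.2, 70.7, and 68.97 CPM in controls, 74.7, 77.5, and 73.2 with SB216763, and 712, 691, and 729 in ECs. All treated libraries lay above the controls, yet the log2 difference was 0.11 (95% interval 0.01 to 0.21, adjusted p = 0.0403) and did not pass. ECs held 10.2-fold more than controls and 9.46-fold more than treated cells. Ephb1 had 1 count in a single control library, 0 with SB216763, and 65, 58, and 72 counts in ECs, where it was at least 20.02-fold higher than in treated cells at a floor of 3 counts per library. Per kilobase of exon, the order in treated osteoblasts was Ephb3 at 21.6, Ephb4 at 16.2, Ephb6 at 4.83, and Ephb2 at 1.88 CPM. In controls, Ephb4 and Ephb3 were close, at 15.01 and 14.1, and their order turned with the length of the longest transcript, at 16.04 and 19.7. In ECs, Ephb4 stood alone at 153 CPM per kilobase.

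The A ephrins differed by at most 1.56-fold between treated and control osteoblasts. Efna5 was the most abundant of them, at 31.5, 26.3, and 29.4 CPM in controls, 26.9, 27.4, and 27.6 with SB216763, and 27.7, 29.7, and 29.8 in ECs, and its values overlapped between controls and both other groups. Efna1, the usual ligand of EphA2, held 7.94, 9.23, and 7.64 CPM in controls, 8.86, 8.498, and 7.27 with SB216763, and 18.8, 17.2, and 17.2 in ECs. It differed by log2 -0.02 with the inhibitor (95% interval -0.22 to 0.17) and was 2.13-fold higher in ECs than in controls. Efna2 fell 1.52-fold and Efna4 rose 1.56-fold, and both were under 0.26 CPM in ECs. Efna3 ranged from 2.04 to 3.66 CPM over all libraries and passed in neither comparison with controls. Antisense neighbors cover 14.1% of the exon bases of Efna3 and 10.5% of those of Efna4, so these counts are uncertain. In sum, the 5 A ephrins gave 49.2–52.4 CPM in controls, 49.2–51.5 with SB216763, and 50.1–51.1 in ECs.

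The B ephrins moved in opposite directions with the inhibitor. Efnb2 (ENSMUSG00000001300.16, chr8:8617434-8661242), the arterial ligand of EphB4, held 41.6, 40.2, and 40.8 CPM in controls, 6.39, 6.07, and 6.86 with SB216763, and 165, 162, and 161 in ECs. No 2 groups overlapped, and the treated cells were lowest. Efnb2 fell 6.34-fold (log2 -2.66 ± 0.0548 (SE), adjusted p = 6.20e-16), and the call held under every alternative run for it, with log2 changes of -2.71 to -2.46. ECs stood 3.98-fold above controls (log2 1.99, just short of the fold threshold) and 25.3-fold above treated cells. The difference from controls was called without control replicate 1 (2.003) and with DESeq2 (2.008). It was also called with scaling by RLE factors (2.008) or by library size alone (2.12).

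Efnb1 (chrX:99136130-99148991), a broadly expressed ligand of the EphB receptors that shapes the skull, held 135, 139, and 134 CPM in controls, 344, 351, and 324 with SB216763, and 53.1, 54.6, and 56.6 in ECs. The order was the reverse of that of Efnb2, with treated cells highest and ECs lowest. Efnb1 rose 2.498-fold (log2 1.32 ± 0.046 (SE), adjusted p = 3.78e-13) and in ECs was 2.48-fold below controls. Efnb3, the third transmembrane ligand, rose 2.37-fold (adjusted p = 0.000303) from a low level, 0.734 ± 0.207 to 1.66 ± 0.441 CPM (SD, n = 3). Per kilobase of exon, Efnb1 and Efnb2 stood at 39.4 and 5.96 CPM in controls, at 98.4 and 0.9399 in treated cells, and at 15.9 and 23.7 in ECs.

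**Figure D2:**
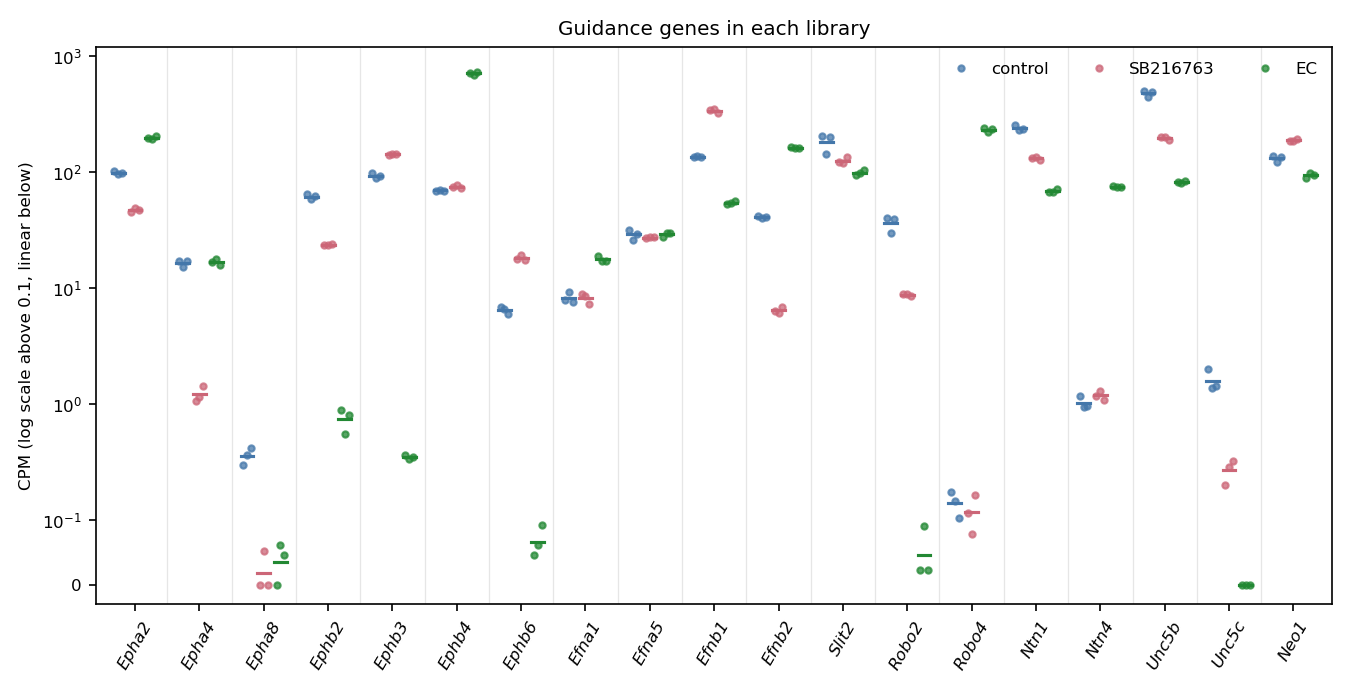
CPM of the guidance genes with a mean of at least 10 CPM in a group or called with SB216763, in each library (points) with the group mean (bars). The vertical axis is logarithmic above 0.1 CPM and linear below. Efnb2 and Epha4 are lowest in treated cells, Efnb1 and Ephb3 are highest there, and Robo4, Ntn4, and Ephb4 are highest in ECs.

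Of the Slits, Slit2 carried nearly all reads. Slit2 held 206, 143, and 201 CPM in controls, 122, 121, and 135 with SB216763, and 94.7, 98.6, and 104 in ECs. Control replicate 2 was the lowest control, though still above every treated library. Slit2 fell 1.46-fold (log2 -0.54, adjusted p = 0.000158). Slit1 was far lower, at 0.929, 0.528, and 0.625 CPM in controls, and fell to 0.201, 0.156, and 0.354 in treated cells (log2 -1.57, adjusted p = 0.000751). Slit3 had 0, 0, and 1 counts in controls, 4, 0, and 6 with SB216763, and 65, 73, and 91 in ECs. Its 10 treated counts against 1 give a ratio of 13.4 with an exact binomial interval of 1.90 to 581, and its adjusted p of 0.0259 in the edgeR test did not pass. Without SB216763 replicate 2, which had 0 counts, Slit3 was called higher (log2 3.86, edgeR adjusted p = 0.00362).

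Robo2 and Robo1 are Slit receptors, both encoded on chromosome 16. Robo2 (ENSMUSG00000052516.17, chr16:73891839-74411825) held 40.4, 29.9, and 39.2 CPM in controls, 8.86, 8.91, and 8.61 with SB216763, and 0.0229, 0.0914, and 0.0232 in ECs. Control replicate 2 was again the lowest control, and every treated library lay below it. Robo2 fell 4.14-fold (log2 -2.05 ± 0.10 (SE), adjusted p = 3.87e-11), close to the fold threshold: without control replicate 1 the log2 change was -1.97, and with scaling by library size alone it was -1.85, and both ended the call.

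Robo1 (chr16:72308306-73046095) held 5.73, 4.42, and 4.83 CPM in controls and 5.504, 5.604, and 5.58 with SB216763, and it had 0 counts in all EC libraries. The osteoblast groups overlapped, and the log2 difference was 0.15 (95% interval -0.09 to 0.39, adjusted p = 0.252). Controls held at least 65.3-fold more than ECs at a floor of 3 counts per library. Robo4, the endothelial Robo, had 0.173, 0.146, and 0.104 CPM in controls, 0.115, 0.0782, and 0.163 with SB216763, and 239, 220.4, and 234 in ECs. Between the osteoblast groups its log2 difference was -0.33 (95% interval -1.16 to 0.50), on 3 to 11 counts per library. This interval may be too narrow for so few counts. Robo3, a divergent member that does not bind Slits in mammals, had at most 6 counts in any osteoblast library and 4.88, 3.47, and 3.98 CPM in ECs.

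Ntn1, the founding netrin, held 255, 232, and 238 CPM in controls, 132, 136, and 127 with SB216763, and 67.4, 68.01, and 71.2 in ECs. The 3 groups did not overlap. Ntn1 fell 1.83-fold with the inhibitor (log2 -0.88, adjusted p = 1.23e-10). Ntn4, a netrin of vascular basement membranes, stood at 1.17, 0.947, and 0.972 CPM in controls, 1.18, 1.303, and 1.09 with SB216763, and 75.5, 74.8, and 74.3 in ECs. Its osteoblast groups overlapped (log2 0.19, 95% interval -0.10 to 0.48), and ECs held 71.5-fold more than controls. The interval may be too narrow, since both osteoblast groups had low counts of Ntn4. Per kilobase of exon, Ntn1 led in osteoblasts, with 38.5 CPM in controls against 0.275 for Ntn4, while in ECs Ntn4 led with 20.02 against 10.97. Ntn5 was not tested in the main fit, and without a filter it was called lower with SB216763 (log2 -4.50) and in ECs (log2 -3.82). It had 16, 17, and 7 counts in controls and 1, 0, and 0 in treated cells, a ratio of pooled counts of 29.9 (exact binomial interval 5.06 to 1209), and 23.4% of its exon bases lie antisense to Sec1.

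Among the netrin receptors, Unc5b was the most abundant in osteoblasts. It held 499.7, 449, and 487 CPM in controls, 200.2, 201, and 189.6 with SB216763, and 81.7, 80.6, and 84.7 in ECs, again without overlap. Unc5b fell 2.43-fold with the inhibitor (log2 -1.28 ± 0.0501 (SE), adjusted p = 1.63e-12) and was 5.81-fold lower in ECs than in controls. Its level in these ECs was below that of either osteoblast group.

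Neo1, which encodes neogenin, a receptor of netrins and of the repulsive guidance molecules, moved the other way. It held 138, 123, and 136 CPM in controls, 186, 185, and 194 with SB216763, and 89.04, 97.5, and 94.7 in ECs. Neo1 rose 1.42-fold (log2 0.51, adjusted p = 2.73e-07). Unc5c (ENSMUSG00000059921.15, chr3:141465216-141834924), a repulsive netrin receptor, held 2.0, 1.37, and 1.42 CPM in controls and 0.201, 0.287, and 0.327 with SB216763, and it had 0 counts in all ECs. Treated libraries had 7, 11, and 12 counts, all below the controls, a 5.897-fold fall (log2 -2.56 ± 0.28 (SE), adjusted p = 1.44e-06). Unc5a, Unc5d, and Dcc had at most 3 counts in every library, and no change of these genes was detectable at this depth. Per kilobase of exon, Unc5b and Neo1 stood at 76.5 and 15.2 CPM in controls, at 31.5 and 21.6 with SB216763, and at 13.2 and 10.8 in ECs.

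Ratios of 2 genes within a library do not depend on its depth or scaling. The pairs were chosen after the values were seen and are given as a description. Reads of Efnb1 over those of Efnb2 were 3.24, 3.47, and 3.29 in controls, 53.8, 57.9, and 47.2 with SB216763, and 0.322, 0.337, and 0.351 in ECs, so that treated cells lay on the far side of controls from ECs. Ephb3 over Ephb2 was 1.526, 1.517, and 1.498 in controls, 6.01, 6.10, and 6.02 with SB216763, and 0.410, 0.611, and 0.429 in ECs. The treated values of this ratio lay within a narrow range and away from both other groups. Neo1 over Unc5b was 0.277, 0.273, and 0.279 in controls, 0.928, 0.920, and 1.02 with SB216763, and 1.09, 1.21, and 1.12 in ECs. For this pair, the treated ratio lay between controls and ECs, while Neo1 alone rose with SB216763 and was lower in ECs. Ephb4 over Ephb2 was also in between, with means of 1.13 in controls, 3.17 with SB216763, and 985 in ECs. The EC mean had an SD of 243 and rests on 18 to 39 counts of Ephb2 per library. Ephb4 alone did not pass with the inhibitor. For Ntn1 over Ntn4, the treated ratio was in between too, with means of 236, 111, and 0.920. Epha2 over Epha4 had means of 5.97, 39.6, and 11.8, highest in treated cells. Robo1 over Robo2 was 0.142, 0.148, and 0.123 in controls and 0.621, 0.629, and 0.649 with SB216763. Control replicate 2, the lowest control for Robo2, was also the lowest for Robo1.

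**Figure D3:**
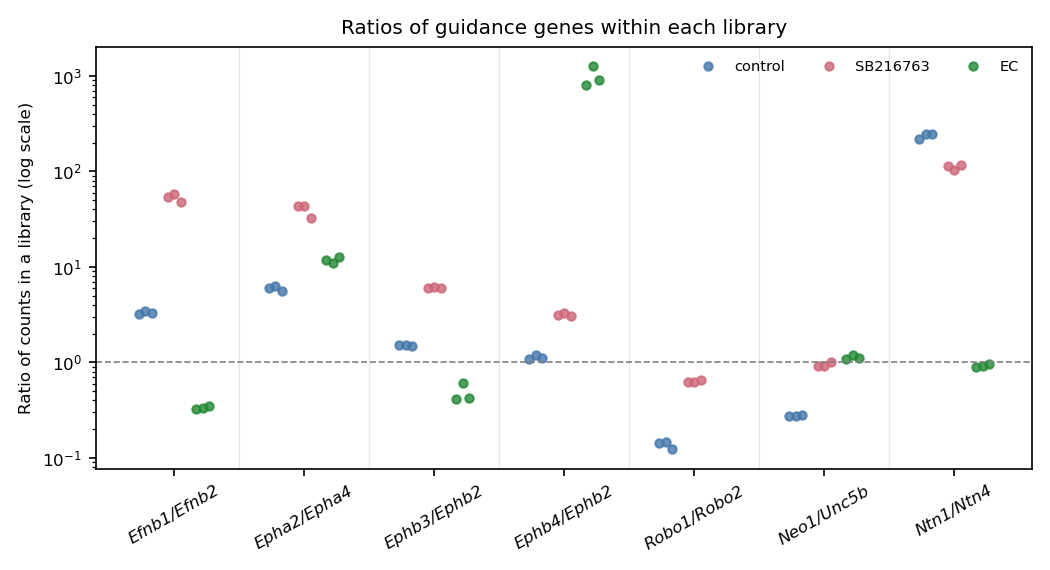
Ratio of the counts of gene pairs within each library (points, logarithmic axis, dashed line at 1) in the 3 groups. Efnb1/Efnb2 is between 47.2 and 57.9 in treated cells and below 0.36 in ECs. Robo1/Robo2 has no points in ECs because Robo1 had 0 counts.

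Guidance genes separated osteoblasts from ECs in both directions. Against controls, ECs were called higher for 8 of the 30 (Epha1, Epha7, Ephb1, Ephb4, Slit3, Robo3, Robo4, and Ntn4), where 13.5% of all genes tested were, and lower for 11 (Epha8, Ephb2, Ephb3, Ephb6, Efna2, Efna4, Slit1, Robo1, Robo2, Unc5b, and Unc5c), where 9.87% were. Several of these passed the expression filter through the group where they are high alone, so the counts describe the genes and support nothing further. Slit1 sat at the threshold (log2 -2.002) and was not called without control replicate 1 (-1.68), EC replicate 2 (-1.85), or EC replicate 3 (-1.95), nor with limma-voom, DESeq2, or any other scaling tried, and Epha8 was not tested without control replicate 2. The median log2 difference was -0.25 over the 30 genes and 0.01 over all genes tested. Treated osteoblasts against ECs gave 9 guidance genes higher, where 10.3% of all genes were, and 10 lower, where 15.0% were, with medians of 0.13 and -0.02. Each pair of comparisons shares a group of libraries, so their values are set side by side only.

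The genes called higher in ECs differed widely in treated osteoblasts. Robo4, Ntn4, and Ephb4 stood at log2 10.57, 6.16, and 3.35 in ECs and at -0.33, 0.19, and 0.11 with SB216763, each against control. None of these changes with the inhibitor passed, and their 95% intervals end at 0.50, 0.48, and 0.21. Those of Robo4 and Ntn4, genes with low counts in osteoblasts, may be too narrow, so their upper ends are approximate. Epha1 was at 2.41 in ECs and rose by 1.66 with the inhibitor. The rest of those called higher in ECs, Epha7, Ephb1, Slit3 (7.62 and 3.26), and Robo3, had few or no osteoblast counts and did not pass with the inhibitor. Among genes called lower in ECs, Robo2 was at -9.67 and -2.05, and Unc5b at -2.54 and -1.28. Ephb2 was at -6.32 and -1.38, Efna2 at -4.62 and -0.61, and Slit1 at -2.002 and -1.57. Epha8, on few counts, was at -3.27 and -4.06, and Unc5c, with 0 counts in ECs, fell by -2.56 with the inhibitor. All of these were lower in both comparisons. Ephb3 was at -8.04 and 0.62, Ephb6 at -6.55 and 1.48, and Efna4 at -4.82 and 0.64, so these genes differed in sign. Robo1, with 0 counts in ECs, did not pass with the inhibitor. Some genes passed the adjusted p in both comparisons without a call in ECs. Of these, Efnb2 at 1.99 and -2.66, Efnb1 at -1.31 and 1.32, Epha2 at 1.01 and -1.06, and Neo1 at -0.50 and 0.51 differed in sign. Ntn1 at -1.81 and -0.88 and Slit2 at -0.89 and -0.54 did not.

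**Figure D4:**
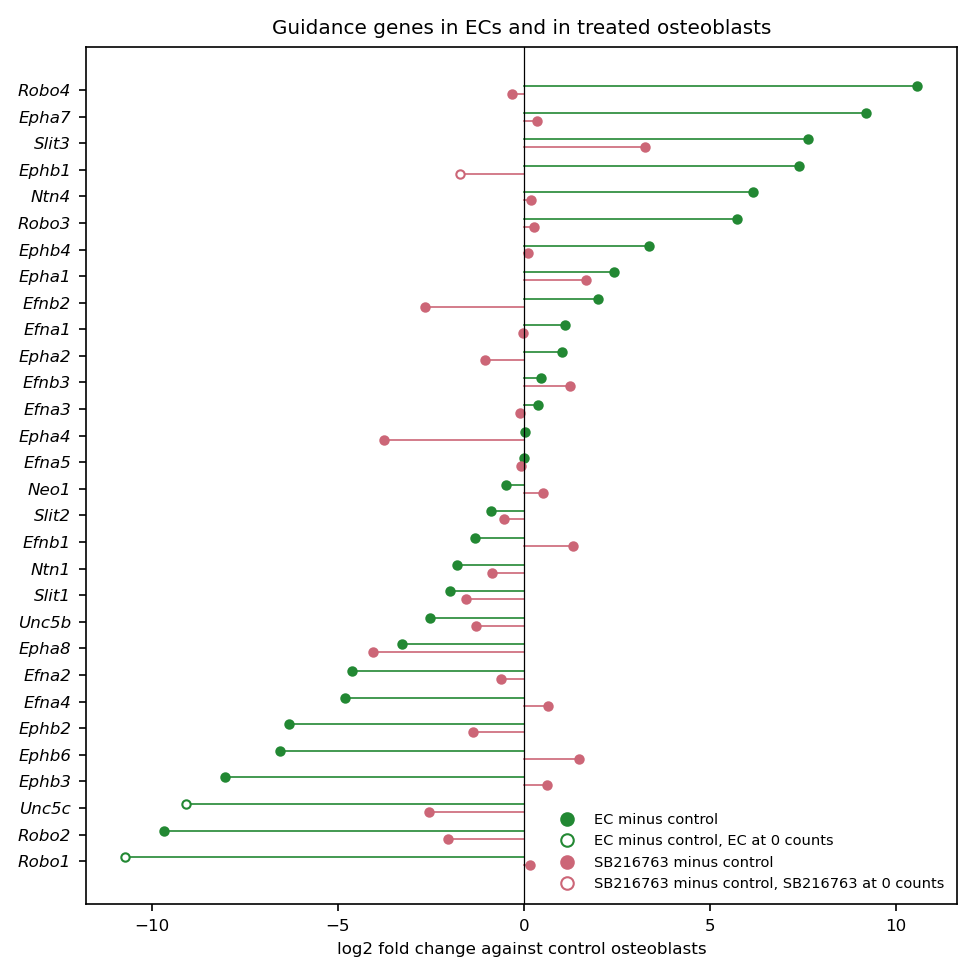
Log2 fold change against control osteoblasts of the 30 tested guidance genes, in ECs (green) and in SB216763-treated osteoblasts (red), ordered by the EC value. Open points have 0 counts in every library of that group, so their position depends on the prior count. Robo4 lies at 10.57 in ECs and -0.33 in treated cells, and Efnb2 at 1.99 and -2.66.

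Other genes of these pathways were read from a list of 49 co-receptors, adaptors, and effectors, of which 48 had a row and 38 were tested. With SB216763, 4 of the 38 were called higher and 2 lower, and at an adjusted p under 0.01 with any fold 14 rose and 12 fell. Over all genes tested these shares were 3.81%, 5.84%, 32.9%, and 32.0%, as above, and the median log2 fold change of the list was 0.05. Nck2, an adaptor that links activated receptors to actin regulators, rose from a mean of 14.2 ± 0.164 to 154 ± 6.25 CPM (SD, n = 3, log2 3.44, edgeR adjusted p = 4.83e-17). Flrt2, a membrane protein that binds UNC5 receptors, rose from 24.9 ± 3.16 to 214 ± 1.06 CPM (log2 3.10), and ECs held 138 ± 6.995. Rgs3, which binds the cytoplasmic tail of B ephrins, rose from 31.5 ± 1.42 to 127 ± 8.59 CPM, at log2 2.01. Cdon, a co-receptor that binds neogenin, fell from 433 ± 35.3 to 64.5 ± 3.68 CPM (log2 -2.75), and ECs held 15.4 ± 0.333. Ablim1, an actin-binding protein of the netrin pathway, fell from 99.5 ± 4.003 to 17.0 ± 0.486 CPM (log2 -2.55), while ECs held 228 ± 2.33. Vav3, an exchange factor recruited by Eph receptors, was called higher (log2 2.17) on 7, 13, and 18 treated counts against 6, 4, and 1. Rgs3 fell just short without control replicate 1 (1.98), control replicate 3 (1.98), or SB216763 replicate 2 (1.95), and Vav3 without control replicate 3 (1.99) or SB216763 replicate 3 (1.83). Vav3 also lost its call with a prior count of 2 (1.68). With only 2 groups fitted, Vav3 was not tested and Rgs3 fell short (1.99). Srgap1 (1.93) was called higher with DESeq2, library size only, or without control replicate 2 or 3 or SB216763 replicate 2 or 3. Grip2, not tested in the main fit, was called without a filter, any single control, or SB216763 replicate 2. Calls reached 6 higher without control replicate 2.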

How the data were processed

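RNA-Seq was performed on 9 libraries, 3 each of control MC3T3-E1 osteoblasts, SB216763-treated MC3T3-E1 osteoblasts, and mouse pulmonary ECs. The authors deposited whole-number read counts per gene from STAR (2.5.3a on GRCm38 in the submitters' processing notes), without normalization, in one table of 50686 Ensembl identifiers. Annotation and strand setting are not given in the sources used here. The labels give the same inhibitor protocol for all samples, so groups follow titles and treatment entries. Symbols were matched for 50376 identifiers. Gene coordinates and exon lengths come from GENCODE M21 (GRCm38), and upstream stretches from RefSeq (GRCm38.p6).

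Counts were tested with edgeR 4.0.16 in R 4.3.3: filterByExpr with the 3 groups, TMM normalization, and a quasi-likelihood fit of all 9 libraries, with Benjamini-Hochberg adjustment over 15531 genes. Calls needed a log2 change of 2 or more in size (prior count 0.125) with an adjusted p under 0.01. CPM are TMM-scaled. Standard errors come from each gene's coefficient and F statistic. For some genes with low counts, among them Robo4 and Ntn4, the p-value of the test was larger than that F statistic gives. The standard errors and intervals of such genes may therefore be too narrow. The fit used a single spread per gene for all groups, though replicates differed more in some groups. Chi-square per gene between 2 libraries of a group, which also grows with depth, was 29.1 to 115 in controls. It was 3.35 to 29.1 with SB216763 and 3.01 to 4.88 in ECs. The effect of this on the p-values was not tested. Values per library are printed for genes called with SB216763 or with a mean of at least 10 CPM in a group. Genes outside that rule whose library values are also printed (Epha1, Epha7, Ephb1, Slit1, Slit3, Robo1, Robo3, and Ntn5) were chosen after their values were seen. The members, the marker lists, the Wnt feedback list, and the list of 49 partner genes were chosen with earlier results of these data known. Results were recomputed with DESeq2 1.42.0, with limma-voom (limma 3.58.1), and with other scalings, filters, thresholds, and prior counts, with a replicate block, in fits of 2 groups, and leaving out each library. In simulated counts of treated and control osteoblasts, 200 of 15125 genes were given a log2 difference of 3, and edgeR, limma-voom, and DESeq2 each called all 200, and 1, 4, and 0 others. The changed genes were drawn from those with more reads, their difference lay past the threshold, and the spread was equal in all groups. The simulation therefore checks that the code runs as meant. It says nothing of genes with few reads or near the threshold. No protein sequence was used here.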

Additional observations from a re-analysis of the deposited data

How the results depend on the processing

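For SB216763 against control, 1 guidance gene was called higher with DESeq2, without a filter, and at an FDR under 0.05, and 4 with the log2 threshold lowered to 1, where 11.1% of all genes tested were. Leaving out single libraries gave 0 to 1, with Slit3 called when SB216763 replicate 2 was left out. Called lower were 2 genes when tested against a log2 fold change of 2, where Epha8, Robo2, and Unc5c were lost and 3.93% of all genes were called lower, and 9 with the threshold at 1, where 13% were. Without a filter 6 were called lower, with Ntn5 gained, where 3.73% of all genes were. The count was 4 with scaling by library size only (5.09% of all genes), with only the 2 groups fitted, and without control replicate 1 or 2. Of the partner genes, 2 were higher when tested against a log2 fold change of 2 (2.05% of all genes) or with only the 2 groups fitted, and 9 were higher and 4 lower with the threshold at 1. Scaling by library size only moved the median of all genes to 0.22 for SB216763 against control, 0.13 for ECs against control, and 0.06 for SB216763 against ECs, and the medians of the guidance genes to 0.109 (a reversal of sign), -0.123, and 0.206. For SB216763 against control, the main medians were 0.014 over all genes and -0.095 over the guidance genes. Both thus moved together, and the guidance median stayed below that of all genes by a similar amount. Under that scaling, 718 genes were called higher and 790 lower with SB216763, against 592 and 907. Without a filter the guidance medians were -0.21 for SB216763 against control and -0.57 for ECs against control. With only 2 groups fitted, the median of SB216763 against ECs reversed to -0.0580, with fewer genes tested. Leaving out single libraries, the medians ran from -0.270 to -0.0548 for SB216763 against control, from -0.277 to -0.0813 for ECs against control, and from -0.0262 (without SB216763 replicate 3, a reversal) to 0.160 for SB216763 against ECs. The causes of these shifts were not tested. Same-numbered libraries had correlations of their deviations between -0.04 and 0.12 and were not treated as pairs. With the replicate number as a block, 0 guidance genes were called higher and 5 lower with SB216763, the main counts, and 581 and 901 of all genes. Of the single-gene results for SB216763 against control, 546 kept their side of the threshold over the alternatives that tested the gene, 12 gained a call, and 5 lost one. These leave out Epha8 where it was not tested, without control replicate 2 and with only 2 groups fitted. For ECs against control, Slit1 lost its call with limma-voom (-1.95), DESeq2 (-1.996), every other scaling (-1.998 to -1.88), and a prior count of 2 (-1.77). Levels per kilobase moved by more than the spread between replicates in 49 of 90 values with the longest transcript as the length. Depth limits the genes under 3 counts per library, whose changes could not be measured.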
